A study of Mus musculus with 6 samples.

Results

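Epithelial cells of the branching airway are held together by junction complexes and are polarised, with an apical face toward the lumen and a basal face toward the surrounding tissue. The 34 genes described here encode the parts of that apparatus, and all 34 were measured among 22180 genes tested. They fall into 8 adherens junction and adhesion genes, 8 tight junction genes, 13 apical-basal polarity genes and 5 desmosome genes, with claudins left out. By textbook knowledge, 13 are counted here as largely restricted to epithelia, and 4 desmosome genes as shared between epithelia and heart muscle. The remaining 17 are counted as broadly expressed, though some of them, such as Crb2, are not found in all tissues. A gene with several probe sets was represented by its brightest one, among those annotated with 1 gene symbol.

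Whole lung buds of mouse embryos at E12.5 were measured on 6 arrays. The control group was 3 arrays of lungs with the genotype Shh cre/+. The mutant group was 3 arrays of lungs with the genotype Fzd2Flox/Flox; Shh cre/+, in which Fzd2, a Frizzled receptor for Wnt ligands, is targeted by the same Cre allele that the controls carry. Cre is made where Shh is expressed, which in the lung is the epithelium, so mesenchyme, vessels and nerves of the mutant lungs are not the intended targets. The labels call the arrays biological replicates, and they do not say whether an array holds 1 lung or a pool of lungs. P-values therefore measure the spread between these arrays. Values are log2 expression values, and a log2 difference is always the mutant mean minus the control mean.

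In background terms, E-cadherin at the adherens junction binds its like on the neighbouring cell and is tied to actin through beta-catenin and alpha-catenin. The tight junction, built from claudins, occludin and related membrane proteins on a zonula occludens scaffold, seals the space between cells, and desmosomes anchor keratin filaments. The apical Par and Crumbs complexes and the basolateral Scribble complex keep each other out of their parts of the cell membrane. Frizzled receptors signal partly through beta-catenin, which therefore serves in both adhesion and Wnt signalling.

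Fzd2 itself stood at log2 values of 9.57, 9.82 and 9.75 in the controls and at 9.67, 9.07 and 9.54 in the mutants (log2 difference -0.29, SE 0.15, limma adjusted p = 0.475). The groups overlapped, so the targeted gene is a weak check of the labels in these whole lungs. Without mutant replicate 2, the lowest array, the difference of Fzd2 was -0.10, and without mutant replicate 1 it was -0.41. Each of 3 arrays stood apart in genes known from another tissue. Control replicate 1 had a mean of 8.71 over 14 genes of adult small intestine against 6.34 to 6.52 on the other arrays. Mutant replicate 2 had a mean of 10.1 over 9 adipose genes against at most 7.69 elsewhere. Mutant replicate 1 had a mean of 8.82 over 12 heart muscle genes against 7.87 to 7.94. The part of these arrays in the results was not tested.

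None of the 34 genes passed limma's threshold (adjusted p under 0.05 over all 22180 genes), in either direction, where 0.0451% of all genes were called lower and 0.018% higher. At an unadjusted p under 0.05, 11 of the 34 (32.4%) were lower and 1 (2.94%) was higher, against 5.15% and 7.34% of all genes. In 31 of 34 genes the mutant mean was below the control mean, against 45.2% of all genes. All 3 mutant arrays lay below all 3 control arrays in 15 genes (44.1%, against 8.83% of all genes) and above them in 1 gene (2.94%, against 10.6%). The median log2 difference over the 34 genes was -0.07, beside 0.01 over all genes. The epithelium-restricted genes had a median of -0.23, with lower means in 11 of 13, an unadjusted limma p under 0.05 in 9 of 13 and no overlap in 9 of 13 (69.2%). The broadly expressed genes had lower means in 17 of 17, but a median of -0.05, with 0 of 17 at that p and no overlap in 4 of 17 (23.5%). The difference between the restricted and the broadly expressed genes was not tested. These small differences depended on the scaling: after a further quantile normalization, 26 of the 34 genes had lower means. The medians were then -0.017 over the broadly expressed genes and 0.03 over all genes. In whole lungs, fewer epithelial cells and less RNA of these genes per cell cannot be told apart.

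**Figure D1:**
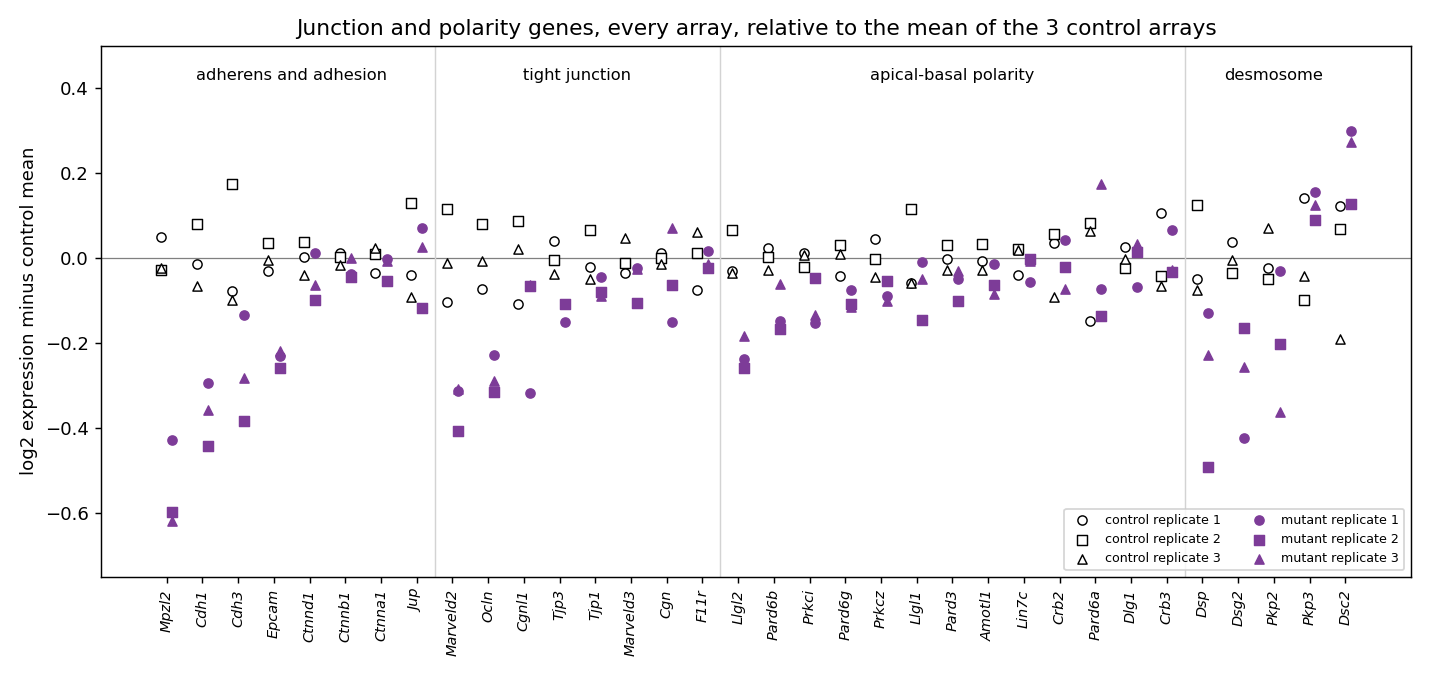
Log2 expression of each gene on every array, minus the mean of the 3 control arrays, grouped by junction type; open symbols are control arrays, filled symbols are mutant arrays, and symbol shape gives the replicate number. Filled symbols sit below all open ones for 15 genes (44.1%, against 8.83% of all genes). These are Mpzl2, Cdh1, Cdh3, Epcam, Marveld2, Ocln, Tjp3, Llgl2, Pard6b, Dsp and Dsg2, and the broadly expressed Pard3, Pard6g, Prkci and Prkcz. Open and filled symbols mix for the catenin genes Ctnnd1, Ctnnb1 and Ctnna1, among others.

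Among the adhesion molecules, Mpzl2, an immunoglobulin-type adhesion protein of epithelial cells, had the largest difference of the 34 genes. Its log2 values were 9.39, 9.31 and 9.32 in the controls and 8.91, 8.74 and 8.72 in the mutants. The groups were separated by a gap wider than the spread within either, and the mutant level was 68.4% of control (log2 difference -0.55, SE 0.06, limma adjusted p = 0.0509). Ranked by p over all genes tested it stood at place 16. Leaving out each array in turn gave differences from -0.61 to -0.51, and the unadjusted p was at most 0.000244 in those 6 fits. Mpzl2 crossed limma's adjusted threshold in 4 other settings, with adjusted p-values of 0.0374 without the dimmest 30% of genes, 0.0494 with probe sets averaged, 0.0159 with an intensity trend and 0.0404 with array weights. Over the alternatives on the same scale its adjusted p ran from 0.0159 to 0.228.

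Cdh1, which encodes E-cadherin, stood at 10.11, 10.21 and 10.06 in the controls and at 9.83, 9.68 and 9.77 in the mutants. Every mutant array was below every control array, at 77.6% of the control level (log2 difference -0.37, SE 0.06, limma adjusted p = 0.115). Cdh3, which encodes P-cadherin and has no protein-coding gene between it and Cdh1 on chromosome 8, stood at 9.38, 9.64 and 9.36 in the controls and at 9.33, 9.08 and 9.18 in the mutants. Here control replicate 2 was the high array and the gap between the groups was narrow (log2 difference -0.27, SE 0.09, limma adjusted p = 0.333). Without control replicate 2 the difference for Cdh3 was -0.18 and without mutant replicate 1 it was -0.33. A second probe set of Cdh1 lay near the low end of the scale, with means of 5.17 in controls and 5.09 in mutants, and was not used.

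Epcam, an epithelial adhesion molecule used as a general marker of epithelia, was the steadiest of the adhesion genes. Its values were 11.15, 11.22 and 11.18 in the controls and 10.95, 10.92 and 10.96 in the mutants, lower on every mutant array and at 85.0% of control, with little scatter in either group (log2 difference -0.24, SE 0.05, limma adjusted p = 0.16). Leaving out any array kept it between -0.25 and -0.22.

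The cytoplasmic partners of the cadherins were closer to the control level. The beta-catenin gene Ctnnb1 stood at 12.65, 12.64 and 12.62 in the controls and at 12.60, 12.60 and 12.64 in the mutants. The groups overlapped, with a log2 difference of -0.027 and a 95% interval from -0.13 to 0.08. The alpha-catenin gene Ctnna1 (-0.020, interval -0.13 to 0.09), the p120-catenin gene Ctnnd1 (-0.05, interval -0.17 to 0.07) and the plakoglobin gene Jup (-0.0061, interval -0.18 to 0.17) also overlapped between the groups. Over these 4 broadly expressed partners the median was -0.02, beside -0.32 over the 4 epithelium-restricted adhesion genes Cdh1, Cdh3, Epcam and Mpzl2. The interval of Ctnnb1 does not reach the difference of Cdh1. These are values of whole lungs, where a broadly expressed gene is also read from cells outside the epithelium. They therefore do not compare the catenins with the cadherins within the epithelium.

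At the tight junction, the largest differences were those of Marveld2 and Ocln. Marveld2, which encodes tricellulin, the protein of contacts between 3 cells, stood at 8.65, 8.87 and 8.74 in the controls and at 8.44, 8.35 and 8.45 in the mutants. The mutant arrays were all lower, at 78.8% of control (log2 difference -0.34, SE 0.07, limma adjusted p = 0.16). The occludin gene Ocln, which has no protein-coding gene between it and Marveld2 on chromosome 13, stood at 9.45, 9.60 and 9.52 in the controls and at 9.30, 9.21 and 9.23 in the mutants (82.5% of control, log2 difference -0.28, SE 0.06, limma adjusted p = 0.175). Control replicate 2 had the highest value of both genes, and without it the differences were -0.29 for Marveld2 and -0.24 for Ocln, each still at an unadjusted p under 0.05. Marveld3, the third member of this family, had groups that overlapped (log2 difference -0.05, interval -0.17 to 0.07).

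The genes of the scaffold under the tight junction had smaller differences. Tjp3, the zonula occludens gene most restricted to epithelia, stood at 8.18, 8.14 and 8.11 in the controls and at 7.99, 8.03 and 8.03 in the mutants. The groups did not overlap, but the difference was small (-0.12, SE 0.05, limma adjusted p = 0.364) and it was at an unadjusted p under 0.05 in only 1 of the 6 fits that leave out an array. The broadly expressed Tjp1 had a log2 difference of -0.07 (interval -0.19 to 0.05), and F11r, the junctional adhesion molecule JAM-A, one of -0.0064 (interval -0.13 to 0.12). Cgn, the cingulin gene, was at -0.05 (SE 0.06) and its paralog Cgnl1 at -0.15 (SE 0.09). Mutant replicate 1 was the lowest array for both, and without it the differences were 0.0044 for Cgn and -0.06 for Cgnl1.

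Among the polarity genes the largest difference was that of Llgl2, the epithelial Lethal giant larvae protein of the basolateral membrane. Its values were 8.40, 8.5 and 8.40 in the controls and 8.20, 8.18 and 8.25 in the mutants. All mutant arrays were lower, at 85.5% of control (log2 difference -0.23, SE 0.05, limma adjusted p = 0.198), and the difference was at an unadjusted p under 0.05 in 6 of 6 fits that leave out an array. Its broadly expressed paralog Llgl1 overlapped between the groups, with a log2 difference of -0.07 (interval -0.22 to 0.09).

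The genes of the Par complex had small differences of 1 sign. Pard6b, the Par6 form counted here as epithelial, stood at 8.76, 8.74 and 8.71 in the controls and at 8.59, 8.57 and 8.67 in the mutants (log2 difference -0.12, SE 0.05, limma adjusted p = 0.376). The groups did not overlap for Pard6b, nor for Pard6g (-0.10), the atypical protein kinase C genes Prkci (-0.11) and Prkcz (-0.08), or the scaffold gene Pard3 (-0.06). Of these 5 genes, Pard6b was at an unadjusted p under 0.05 with all arrays but in only 1 of 6 fits with an array left out. Pard6a, the dimmest of the 34 genes, at the 39.3th percentile of all genes, had overlapping groups and an interval from -0.24 to 0.22.

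The apical Crumbs genes and their partners lay close to the control level. Crb3, the Crumbs protein of epithelia, stood at 8.10, 7.95 and 7.93 in the controls and at 8.06, 7.96 and 7.96 in the mutants (log2 difference 0.0023, interval -0.14 to 0.15). Control replicate 1 was its highest array, and without that array the difference was 0.06. The difference took the other sign without control replicate 2, control replicate 3 or mutant replicate 1. Crb2 (-0.017), the Scribble-complex gene Dlg1 (-0.0075), Lin7c, a scaffold of the basolateral membrane (-0.021), and the angiomotin-family gene Amotl1 (-0.05) had overlapping groups.

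**Figure D2:**
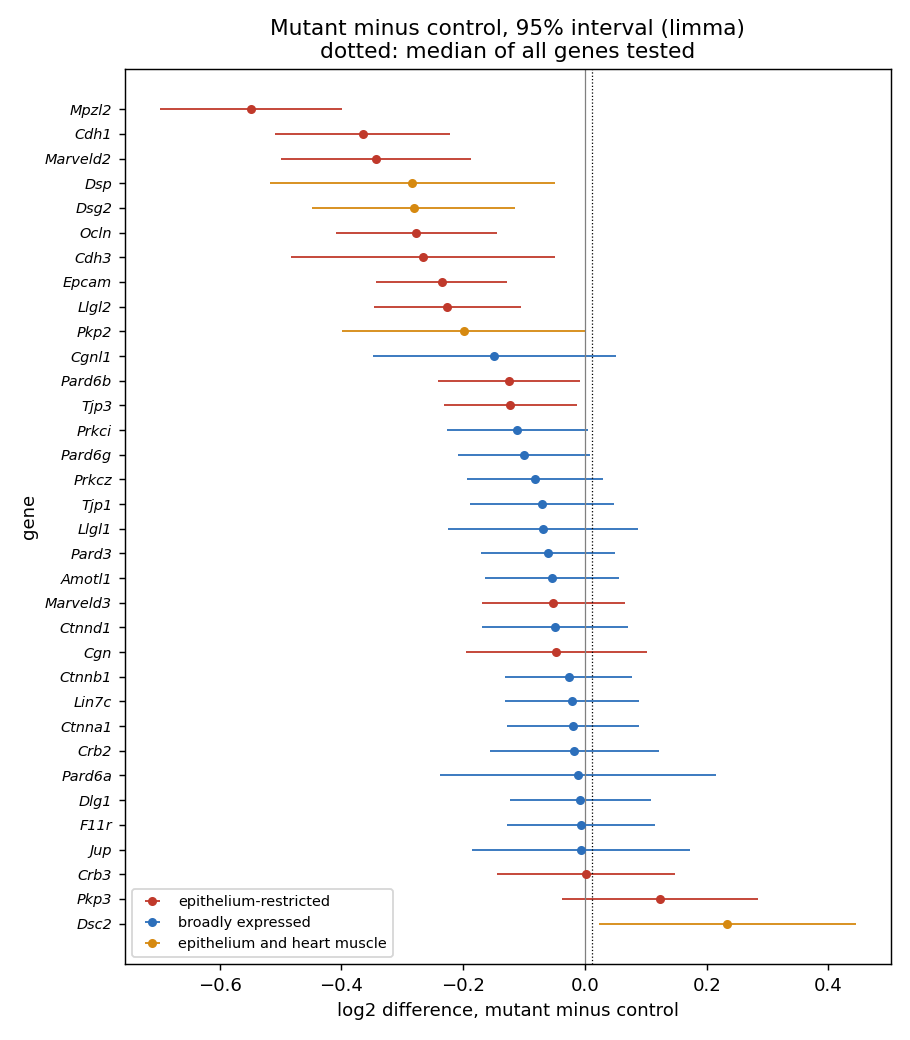
Log2 difference, mutant minus control, for each of the 34 genes with limma's 95% interval, ordered by size and coloured by where the gene is known to be expressed; the dotted line is the median of all genes. Intervals exclude 0 for 9 of 13 epithelium-restricted genes, all on the lower side, and for 0 of 17 broadly expressed genes. Of the 4 genes of epithelium and heart muscle, 2 have intervals below 0 (Dsp and Dsg2) and 1 above it (Dsc2). Over all genes, 5.15% were lower and 7.34% higher at the matching unadjusted limma p under 0.05.

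The desmosome genes did not share a direction. Dsp, the desmoplakin gene, whose protein links the plaque to keratin, stood at 9.07, 9.24 and 9.04 in the controls and at 8.99, 8.63 and 8.89 in the mutants. Mutant replicate 2 was the low array and mutant replicate 1 lay close under the controls (log2 difference -0.28, SE 0.10, limma adjusted p = 0.338). The desmoglein gene Dsg2 stood at 8.01, 7.94 and 7.97 in the controls and at 7.55, 7.81 and 7.72 in the mutants (log2 difference -0.28, SE 0.07, limma adjusted p = 0.237). A second, dimmer probe set of Dsg2 went the other way, with means of 6.49 in controls and 6.60 in mutants, so its direction depends on the probe set. Pkp2, a plakophilin of the desmosomal plaque, had 1 mutant array within the control range (log2 difference -0.20, SE 0.09).

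Dsc2, a desmocollin, was the only gene of the 34 with all mutant arrays above all controls. It stood at 7.37, 7.32 and 7.06 in the controls and at 7.55, 7.38 and 7.53 in the mutants, with control replicate 3 as the low array (log2 difference 0.23, SE 0.09, limma adjusted p = 0.365). Without control replicate 3 the difference was 0.14. The epithelial plakophilin gene Pkp3 had values of 7.49, 7.25 and 7.31 in the controls and of 7.5, 7.44 and 7.47 in the mutants (log2 difference 0.12, interval -0.04 to 0.28). Without control replicate 1 the difference for Pkp3 was 0.19, and without control replicate 2 it was 0.07.

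Dsp, Dsg2, Dsc2 and Pkp2 are also expressed in heart muscle, and mutant replicate 1 carried the most heart muscle signal. Myh6, the cardiac myosin heavy chain gene, stood at 9.25 there and at most at 7.09 on the other arrays. Without mutant replicate 1 the differences were -0.36 for Dsp, -0.21 for Dsg2, 0.20 for Dsc2 and -0.28 for Pkp2, each with the same sign as over all arrays. Other omissions made differences smaller: Dsp was at -0.18 without mutant replicate 2 and Pkp2 at -0.12 without mutant replicate 3. All 12 heart muscle genes had higher means in the mutants, with a median of 0.23. None passed limma's threshold and 0 were at an unadjusted p under 0.05.

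Sequences just upstream of the transcription start were compared because several of the epithelial genes were lower together. RefSeq promoter windows (GRCm38.p6, 250 bases before the start, the most upstream window of a gene) matched 23 of the 34 genes. The other 11, Cdh1 and Mpzl2 among them, had no window and were not searched. The E-box letters CACCTG, read on both strands, are the kind bound by Snail and Zeb repressors of epithelial genes. They were present in 6 of the 23 windows (26.1%), against 17.1% of 27025 genes with a window. Of 7 epithelium-restricted genes with a window, 4 held them (Crb3, Epcam, Pard6b and Tjp3), as did 2 of 15 broadly expressed genes (F11r and Prkcz). The letters AACCGGTT of a full grainyhead site were in 0 of the 23 windows and in 0.126% of all. The shorter core ACCGGT was in 2 of the 23 windows (Ctnnb1 and Epcam; 8.7%) and in 1.83% of all. The motifs were chosen with the expression values and the sequences known, and a match is a description of the letters, not a site. The windows of these 4 genes and of Marveld2, which held none of the motifs, are shown 5′ to 3′ on the gene's strand, with E-box and core letters in capitals.
Epcam (chr17:87635729-87635978, plus strand): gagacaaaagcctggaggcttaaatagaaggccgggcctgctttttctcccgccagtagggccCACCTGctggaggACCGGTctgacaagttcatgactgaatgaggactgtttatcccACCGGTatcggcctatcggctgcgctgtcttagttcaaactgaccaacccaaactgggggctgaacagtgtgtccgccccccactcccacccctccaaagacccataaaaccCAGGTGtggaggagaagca
Tjp3 (chr10:81291582-81291831, minus strand): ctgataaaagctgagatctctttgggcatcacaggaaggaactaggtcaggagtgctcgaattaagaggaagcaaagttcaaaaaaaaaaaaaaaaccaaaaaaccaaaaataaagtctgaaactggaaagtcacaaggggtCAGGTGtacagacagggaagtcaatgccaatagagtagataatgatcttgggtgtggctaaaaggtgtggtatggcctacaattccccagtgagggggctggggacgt
Pard6b (chr2:168080754-168081003, plus strand): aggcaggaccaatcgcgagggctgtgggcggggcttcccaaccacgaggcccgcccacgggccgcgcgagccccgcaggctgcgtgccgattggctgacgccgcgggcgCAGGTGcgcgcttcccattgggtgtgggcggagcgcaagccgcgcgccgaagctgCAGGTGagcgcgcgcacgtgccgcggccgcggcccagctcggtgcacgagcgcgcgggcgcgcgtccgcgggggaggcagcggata
Crb3 (chr17:57061951-57062200, plus strand): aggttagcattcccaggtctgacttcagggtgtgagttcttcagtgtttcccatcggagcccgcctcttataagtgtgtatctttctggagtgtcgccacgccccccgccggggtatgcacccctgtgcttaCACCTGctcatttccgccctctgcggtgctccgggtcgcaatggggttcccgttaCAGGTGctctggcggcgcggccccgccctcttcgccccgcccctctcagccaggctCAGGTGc
Marveld2 (chr13:100616972-100617221, minus strand): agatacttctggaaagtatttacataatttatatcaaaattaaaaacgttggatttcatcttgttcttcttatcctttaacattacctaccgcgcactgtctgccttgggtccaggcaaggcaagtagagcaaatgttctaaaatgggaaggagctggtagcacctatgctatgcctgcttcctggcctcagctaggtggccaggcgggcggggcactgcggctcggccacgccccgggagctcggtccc

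Among the genes with a window, some with and some without the E-box letters had a lower level, and some of each did not. Crb3 held 3 matches, at 118, 63 and 7 bases before the start, and had a log2 difference of 0.0023. Epcam held 2, at 187 and 19 bases, with a difference of -0.24, while Marveld2 held 0 and had a difference of -0.34.

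The other genes of these structures, which were listed without claudins, had differences of both signs. Of 52 measured, 31 (59.6%) had lower means, against 45.2% of all genes, and 0 passed limma's threshold. At an unadjusted limma p under 0.05, 11 (21.2%) were lower and 4 (7.69%) higher, against 5.15% and 7.34% of all genes. All mutant arrays lay below all control arrays in 14 (26.9%, against 8.83% of all genes) and above them in 5 (9.62%, against 10.6%). Their median log2 difference was -0.04. Among tight junction genes, those with the smallest p were the scaffold genes Magi3 (-0.19, SE 0.05) and Patj (-0.19, SE 0.05), the adhesion molecule gene Cxadr (-0.20, SE 0.06) and Ildr1, a protein of tricellular contacts (-0.16, SE 0.05). Among polarity genes they were Dlg2 (0.27, SE 0.06), the basolateral scaffold gene Scrib (-0.22, SE 0.06), Lin7a (-0.19, SE 0.07) and the kinase gene Mark3 (-0.15, SE 0.06). Among adherens genes Ctnna2, the neuronal alpha-catenin (0.40, SE 0.07), and the cadherin gene Cdh6 (0.43, SE 0.09) were higher. Camsap3, which ties microtubules to junctions (-0.26, SE 0.06), and Nectin3 (-0.15, SE 0.06) were lower. Of 8 further desmosome genes, most of them dim, 7 had higher means, with a median of 0.10. Perp, which is also a p53 target, had the smallest p there (0.52, SE 0.20), followed by Dsg3 (0.14), Dsc3 (0.16) and Dsc1 (0.08).

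Epithelial markers that are not among the 34 genes had the same sign. All 22 of them, which include the tight junction genes Cldn3, Cldn4, Cldn6 and Cldn7 beside keratins and transcription factors, had lower means in the mutants. Their median log2 difference was -0.27, and 15 of them (68.2%) were lower at an unadjusted limma p under 0.05, against 5.15% of all genes. Those with the smallest p were the splicing regulators Esrp1 (-0.48, SE 0.05) and Esrp2 (-0.42, SE 0.05), the lung transcription factor Nkx2-1 (-0.41, SE 0.05) and Prom1 (-0.33, SE 0.05). Their mean level lay between 9.01 and 9.10 in controls and between 8.71 and 8.85 in mutants. Of the 13 epithelium-restricted junction genes, 8 had differences within the range of these markers (-0.48 to -0.09), Mpzl2 was below it and 4 were above it.

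**Figure D3:**
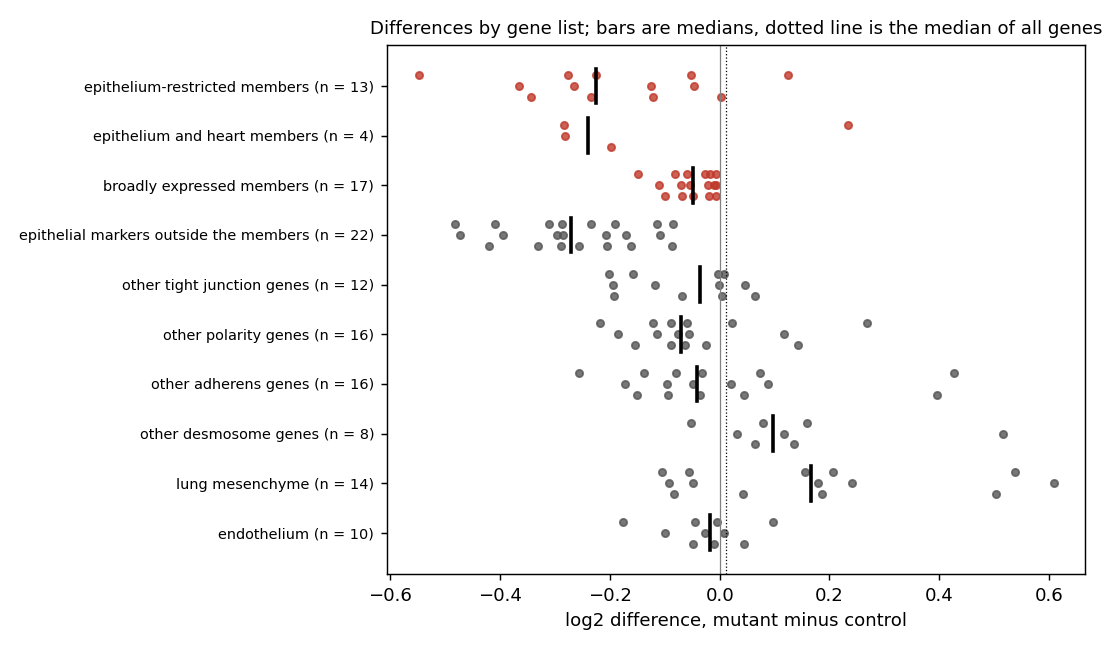
Log2 differences, mutant minus control, for the junction and polarity genes (red) and for other gene lists (grey), 1 point a gene; thick bars are list medians and the dotted line is the median of all genes. The medians of the epithelium-restricted junction genes (-0.23) and of the epithelial markers (-0.27) lie to the left of that of the broadly expressed junction genes (-0.05).

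Set against the mean of those 22 markers, claudins included, on each array, the epithelium-restricted genes took different places. On this scale a difference of 0 means that a gene differed as much as the markers did on average. The values are log2 levels minus the marker mean of the same array. Mpzl2 stood at 0.29, 0.22 and 0.30 in the controls and at 0.06, 0.03 and -0.13 in the mutants, still without overlap (difference -0.28, SE 0.08). Its unadjusted limma p was 0.0038, larger than the 3.9e-05 before the markers were subtracted. The limma adjusted p was 0.0113, on a scale where 0.153% of all genes were called lower and 78.3% higher. With so many genes called the adjustment is lenient, so this adjusted p cannot be set against the 0.0509 given above. Cdh1 kept separate groups as well, at 1.01, 1.12 and 1.05 in the controls and at 0.98, 0.97 and 0.92 in the mutants (difference -0.10, SE 0.07, limma adjusted p = 0.190). No other gene of the 34 had all mutant arrays below the controls on this scale.

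Marveld2 (-0.08), Ocln (-0.013), Cdh3 (-0.0025), Epcam (0.028), Llgl2 (0.04), Dsp (-0.019) and Dsg2 (-0.017) kept within 0.1 of the markers, with limma adjusted p-values of at least 0.356. Crb3 was higher than the markers by 0.27 (SE 0.07, limma adjusted p = 0.0125), Pkp3 by 0.39 (SE 0.08, limma adjusted p = 0.00704) and Dsc2 by 0.50 (SE 0.08, limma adjusted p = 0.00623). For these last 3 genes all mutant arrays lay above all control arrays on this scale, but the scale also raised the median of all genes to 0.28. On it 19 of the 34 genes (55.9%) were called higher, against 78.3% of all genes. The differences of Pkp3 and Dsc2 were above the median of all genes and that of Crb3 was below it.

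**Figure D4:**
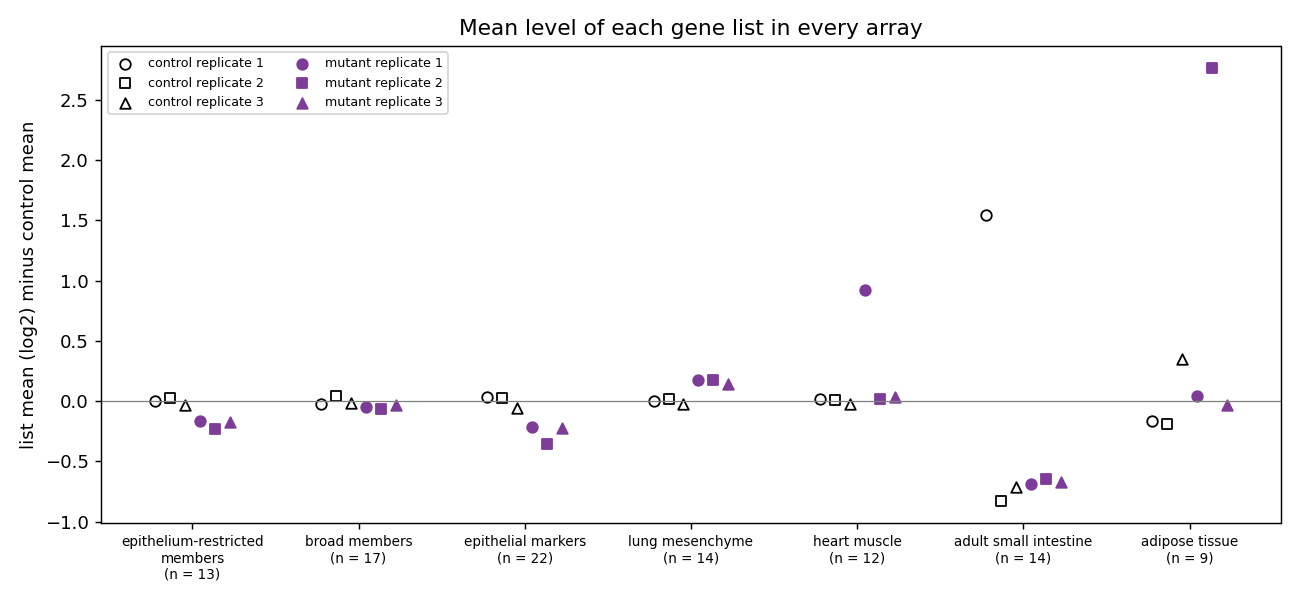
Mean log2 level of each gene list on every array, minus the mean of the 3 control arrays; open symbols are controls, filled symbols mutants. The list means of the epithelium-restricted junction genes and of the epithelial markers are lower on all 3 mutant arrays. That of the 14 mesenchyme genes is higher, though 5 of them had lower means in the mutants. In each of the heart muscle, small intestine and adipose lists 1 array stands apart.

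By array, the mean of the 13 epithelium-restricted genes was 8.89, 8.92 and 8.86 in the controls and 8.73, 8.66 and 8.72 in the mutants. The mean of the 17 broadly expressed genes was 9.96, 10.02 and 9.97 in the controls and 9.93, 9.92 and 9.95 in the mutants. Control replicate 2 held the highest value of 17 of the 34 genes and mutant replicate 2 the lowest value of 15. Without control replicate 2, 7 of the 11 genes stayed at an unadjusted p under 0.05 and Cdh3, Dsp, Pard6b and Tjp3 did not. The same 4 genes were lost without mutant replicate 2, the array with adipose signal, and Prkci was gained. The remaining 7 genes, Cdh1, Epcam, Mpzl2, Ocln, Marveld2, Llgl2 and Dsg2, were at that p in each of the 6 fits. With the probe sets of a gene averaged, Dsg2 was at -0.09 and no longer at that p, and Cdh1 was at -0.22 and still was.

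Small intestine epithelium also expresses many of these genes, and control replicate 1 carried its signal. It held the highest value of 4 of the 13 epithelium-restricted genes, and without it their median was -0.24. With mutant replicate 2 left out as well, that median was -0.23, the same to 2 decimals as with all arrays. Of 14 lung mesenchyme genes, 9 had higher means (median over the 14 of 0.17), and Dcn, a matrix proteoglycan (0.54, SE 0.05, limma adjusted p = 0.0238), rose. The other 5, the transcription factor genes Tbx4, Tbx5, Foxf1, Tcf21 and Meox2, had slightly lower means (-0.10 to -0.05). The 10 endothelial genes, of cells that also carry Jup, F11r and Cgnl1, had a median of -0.018, and mesothelial genes, 6 of 7 of them with higher means, had a median of 0.14. The median was 0.21 over 8 leukocyte genes and 0.09 over 6 neural genes. The part of these cell types in the junction values was not tested.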

How the data were processed

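Total RNA of lung buds, 100 ng an array, was, per the labels' protocols, copied from a poly(T) primer, transcribed and biotinylated. Log2 values were deposited, and the submitters' processing notes name oligo and RMA without versions. The range of the values fits a log2 scale (3.55 to 14.04, array medians 7.29 to 7.32). RMA brings the arrays close to a common distribution, so a large shift of most genes would not show, and differences of dim genes are compressed. Small offsets between arrays remained in the deposited values. A further quantile normalization moved the median log2 difference over all genes from 0.01 to 0.03. Arrays have no read depth; having 3 in each group limits the precision.

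Of 41345 probe sets, 23521 carry 1 symbol, 1814 carry several and 16010 are unnamed here, which gave 22180 genes. The Entrez identifiers of all 34 members matched RefSeq names (GRCm38.p6). Groups were compared two-sided with limma 3.58.1 (lmFit and eBayes, R 4.3.3) with no further term and no filter on dim genes. P-values were adjusted by the Benjamini-Hochberg method over all genes, with a threshold of 0.05. The fit was tested on simulated data. Alternatives were a further quantile normalization, a filter on dim genes, averaged probe sets, an intensity trend, array weights, a replicate block, omitted arrays and values relative to epithelial markers. The members, the gene lists and the rule for names were chosen with earlier results of these data known. The rule took all members, Fzd2 and up to 4 genes with the smallest p in each other list. Myh6, Tbx4, Tbx5, Foxf1, Tcf21, Meox2 and the named claudins fall outside this rule and were chosen after their values were seen. Promoter sequences and gene order came from RefSeq. Plots used matplotlib 3.10.9 (Python 3.11.15).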

Additional observations from a re-analysis of the deposited data

How the results depend on the processing

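Only 6 arrays, whole tissue and RMA values limit these results: small differences of dim genes cannot be told from scatter, and the targeted gene overlapped between the groups. The count of genes called lower was 0 with all arrays. It was 1 (Mpzl2) with the filter on dim genes, averaged probe sets, the intensity trend and array weights. Relative to the epithelial markers it was also 1 (Mpzl2), but the unadjusted limma p of Mpzl2 was larger there (0.0038 against 3.9e-05). The adjustment on that scale is lenient, as 78.3% of all genes were called higher. The deviations of same-numbered arrays had correlations of -0.045, -0.061 and 0.074, beside -0.094 to 0.137 for arrays of other numbers. These values show no sign of pairing by number, but with 3 arrays in each group they cannot exclude it. With the replicate block 0 genes were called and 10 were lower at an unadjusted p under 0.05 (against 4.52% of all genes), 9 of them shared with the 11. Leaving out 1 array gave 7 (without control replicate 2) to 10 genes lower at that p, against 3.26% to 5.23% of all genes. It gave 15 to 19 genes lower without overlap. The share of all genes lower without overlap was then 11.9% to 15.2%, up from 8.83% with all arrays. The medians were -0.09 to -0.05 over all members, -0.24 to -0.18 over the epithelium-restricted and -0.07 to -0.03 over the broadly expressed. A further quantile normalization gave a median of -0.038 and lower means in 26 of the 34 genes, against 31 before. It turned the sign of the broadly expressed Ctnna1 (0.0039), Jup (0.036), F11r (0.024), Dlg1 (0.023) and Lin7c (0.011). Array weights turned Jup (0.021) and Pard6a (0.0077), and omitting control replicate 1 with mutant replicate 2 turned Jup (0.029) and Crb2 (0.0020). With 1 array omitted the sign was not fixed for Jup (-0.052 to 0.059), F11r (-0.043 to 0.024), Cgn (-0.11 to 0.0044), Pard6a (-0.10 to 0.051), Crb2 (-0.063 to 0.011), Crb3 (-0.030 to 0.056) and Dlg1 (-0.028 to 0.024). Relative to the markers, which by construction adds their lower level to every gene, 19 genes were called higher. There 1 gene was lower at an unadjusted p under 0.05 (against 0.185% of all genes), and 2 were below without overlap (against 0.198%). The medians there were 0.19 over all members, 0.038 for restricted and 0.21 for broad genes. Signs turned for Ctnna1 (0.24), Ctnnb1 (0.24), Ctnnd1 (0.21), Jup (0.26), Epcam (0.028), Tjp1 (0.19), Tjp3 (0.14), Marveld3 (0.21), F11r (0.26), Cgn (0.22), Cgnl1 (0.12), Pard3 (0.20), Pard6a (0.25), Pard6b (0.14), Pard6g (0.16), Prkci (0.15), Prkcz (0.18), Crb2 (0.25), Llgl1 (0.19), Llgl2 (0.038), Dlg1 (0.26), Lin7c (0.24), Amotl1 (0.21) and Pkp2 (0.066). The cause of the other changes was not tested.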
